A study of Mus musculus with 6 samples.

Results

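Genes that mark neurons of the neocortical layers, of layer 6b and the subplate, and of the subiculum were followed in hippocampal RNA from mice injected with substance P (SP). A set of 33 genes was taken by symbol from the 55421 genes of the deposited count table, and all 33 were among the 17069 genes with enough counts to be tested. Adult male wild-type C57BL/6N mice, 8 to 10 weeks old, received SP (10 µM, 100 µL) under the skin on 14 days, and vehicle mice received 100 µL of saline on the same days. Each group had 3 mice with 1 stranded mRNA library each, numbered 1 to 3 in the labels, which call that number a batch. No allele, transgene or Cre line was involved in either group. Expression is given as CPM, the estimated counts of a gene scaled to a common library size after TMM normalization, and the libraries held 22349964 to 27605935 counts. The genes were chosen by known anatomy after the differences between SP and vehicle in these same libraries had been seen, and those values thus had a part in the choice. The differences between the groups are therefore given as a description of the 33 genes, and no test was made of the set.

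The neocortex and the subiculum border the hippocampus, and glutamatergic neurons of each layer carry a characteristic combination of transcription factors. CUX1, CUX2 and RORB are typical of the upper layers, FEZF2, BCL11B and ETV1 of layer 5, and TBR1, TLE4 and FOXP2 of layer 6. Layer 6b is the adult remnant of the subplate, a transient layer that organizes early cortical wiring, and *Ccn2*, *Nxph4* and *Cplx3* are among its classic markers. Few of the 33 genes are restricted to the cortex, and *Bcl11b* and *Foxp1*, for example, are also expressed by principal neurons of the hippocampus itself. RNA of the whole tissue was measured, so that fewer cells of a type, less neighboring tissue in the dissection and less RNA per cell cannot be told apart.

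The RefSeq promoter collection for GRCm38.p6 held a window for 25 of the 33 genes and none for *Bmp3*, *Ccn2*, *Crym*, *Deptor*, *Foxp2*, *Nxph4*, *Otof* and *Scnn1a*. The 250 bases before the RefSeq start site are shown for the 3 genes with the most negative fold changes among the 25 and for *Hs3st4*, the only one of the 33 with all SP libraries above all vehicle libraries. *Vwc2l* lies at chr1:70725465-70725714 (plus strand), *Tshz2* at chr2:169632259-169632508 (plus strand), *Cux2* at chr5:122049852-122050101 (minus strand) and *Hs3st4* at chr7:123982578-123982827 (plus strand). The RefSeq start matched the GENCODE start of the gene for *Vwc2l* and lay 504 bases upstream of it for *Tshz2*, 41 bases upstream for *Hs3st4* and 251 bases downstream for *Cux2*, whose window therefore lies within the GENCODE gene. Capitals mark matches on either strand to the GC box GGGCGG or the TATA box TATAAA.
Vwc2l: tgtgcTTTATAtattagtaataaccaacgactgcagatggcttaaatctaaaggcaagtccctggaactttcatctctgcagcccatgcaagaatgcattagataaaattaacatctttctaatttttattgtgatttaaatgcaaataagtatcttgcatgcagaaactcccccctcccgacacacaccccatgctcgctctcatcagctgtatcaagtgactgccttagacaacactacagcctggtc
Tshz2: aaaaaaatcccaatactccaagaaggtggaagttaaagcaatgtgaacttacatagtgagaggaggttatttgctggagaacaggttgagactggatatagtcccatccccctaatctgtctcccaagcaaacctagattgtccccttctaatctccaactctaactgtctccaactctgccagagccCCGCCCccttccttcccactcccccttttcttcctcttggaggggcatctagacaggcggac
Cux2: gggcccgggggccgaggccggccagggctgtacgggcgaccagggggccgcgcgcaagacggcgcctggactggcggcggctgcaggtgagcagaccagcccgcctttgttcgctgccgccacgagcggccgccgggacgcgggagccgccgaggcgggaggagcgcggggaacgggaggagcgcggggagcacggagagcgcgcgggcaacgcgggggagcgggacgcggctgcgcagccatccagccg
Hs3st4: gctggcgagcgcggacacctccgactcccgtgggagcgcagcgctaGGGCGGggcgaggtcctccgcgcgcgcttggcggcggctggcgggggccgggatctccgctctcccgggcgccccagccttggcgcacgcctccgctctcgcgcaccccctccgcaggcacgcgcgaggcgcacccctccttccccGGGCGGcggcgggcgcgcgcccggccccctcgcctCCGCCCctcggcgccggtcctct
The windows of *Cux2* and *Hs3st4* were 80.0% and 82.0% G and C, against 40.8% for *Vwc2l* and 48.8% for *Tshz2*. *Vwc2l* held 1 TATA box and no GC box, *Tshz2* 1 GC box, *Hs3st4* 3 GC boxes and *Cux2* neither motif. Over the 25 genes, with 1 window each, 60.0% of the windows held a GC box and 8.0% a TATA box. Of all 32851 windows, which were not cut to 1 per gene, 32.7% and 12.4% did. The median G and C content was 60.8% in the windows of the 25 genes and 52.4% in all windows. The shares were not matched for it, and nothing is read from them. The T-box site GGTGTGA was found in 1 of the 25 (*Lmo3*, 4.0%, against 3.33% of all windows), the cyclic AMP response element TGACGTCA in 1 (*Hs3st2*, 4.0% against 1.55%) and the MEF2 site, CTA and TAG parted by any 4 bases, in 0 (against 3.2%). None of the 5 motifs contains another, and a match or its absence describes these letters in this window only.

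Of the 33 genes, 24 were lower and 9 higher in the SP libraries than in vehicle by their log2 fold change (log2FC, SP relative to vehicle, given with its standard error, SE), and the median was -0.11. These directions rest on the column names and labels alone, since no gene of the design checks which mice received SP, and the sources used here leave in doubt which way the groups differed. If the group labels were exchanged, each sign given here would turn. Over all 17069 genes, 49.5% were negative and the median was 0.0015. The set was uneven, since 7 genes had a log2FC below -0.5 (4.20% of all tested genes) while 18 lay within 0.2 of 0 (75.9% of all). All 3 SP libraries were below all 3 vehicle libraries in 12 of the 33 genes (9.03% of all tested genes) and above them in 1 (9.19% of all). The 12 genes were *Vwc2l*, *Bmp3*, *Ccn2*, *Tshz2*, *Nxph4*, *Cux2*, *Deptor*, *Tbr1*, *Rorb*, *Cux1*, *Lypd1* and *Tle4*. These shares describe a set chosen with the results known, and nothing is read from them. In edgeR's quasi-likelihood test with the replicate number as a block and Benjamini-Hochberg adjustment over all tested genes, 0 of the 33 passed FDR < 0.1 and |log2FC| > 0.3 (0.0293% of all tested genes), and the lowest FDR was 0.308. Calls in the lower direction made up 0.0117% of all tested genes. Before adjustment, the same edgeR test gave 13 of the 33 a p under 0.05 (10.1% of all), with 12 lower (5.59%) and 1 higher (4.48%). DESeq2 with the same block called *Ccn2*, *Cux2* and *Vwc2l* (0.315% of the genes it gave an FDR), and without the block it called *Bmp3*, *Cux2* and *Deptor* (1.02%). It gave no FDR to *Nxph4*, *Foxp2* and *Rspo1* in either fit. With the block, *Cplx3* and *Bmp3* (log2FC -1.16) had no FDR either. With no filter on low counts, edgeR called 7 of the 33 genes, all lower (1.37% of all). Without the block 0 were called (0.0117% of all). Leaving out replicate 1, 2 or 3 gave 0, 1 and 3 of the 33 (0.0534%, 0.0776% and 0.215% of all), and without the block leaving out SP 1 or SP 3 gave 0 and 6 (0.0413% and 2.11%).

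**Figure D1:**
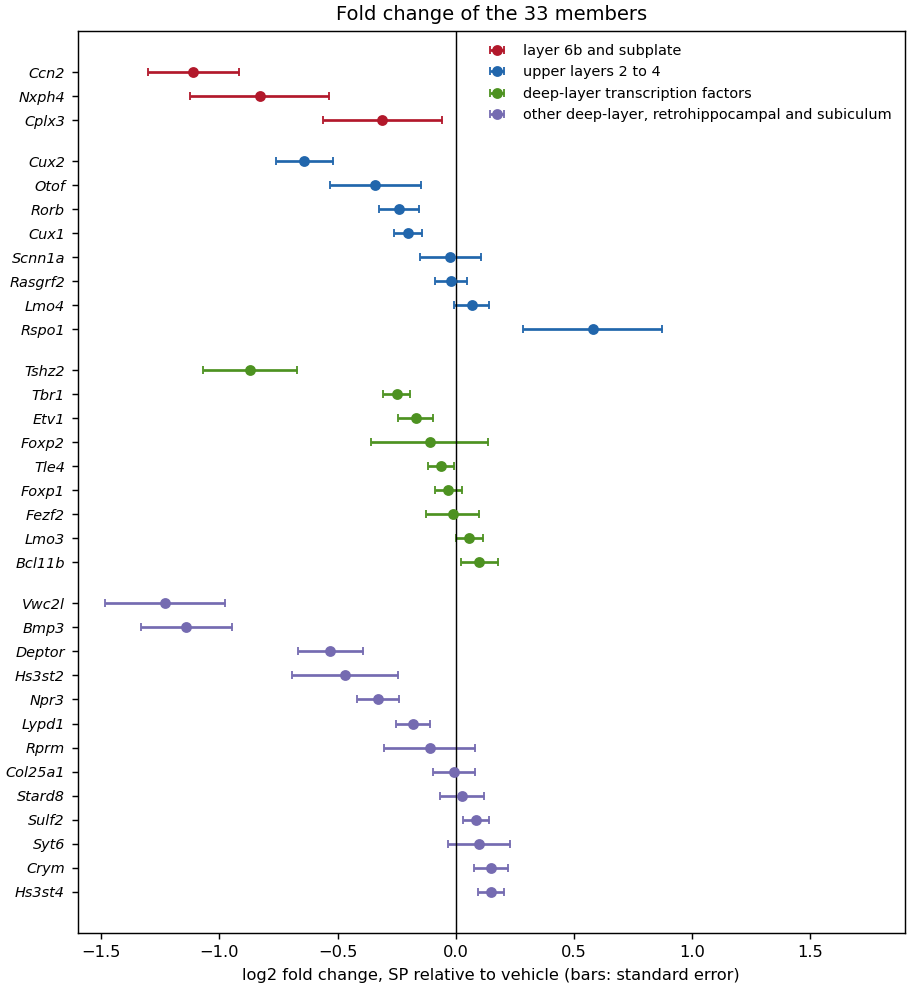
Log2 fold change of each of the 33 genes in the SP libraries relative to vehicle (horizontal axis), ordered within 4 groups of genes. Bars show the SE derived from the edgeR test. *Vwc2l*, *Bmp3* and *Ccn2* lie furthest to the left at -1.23, -1.14 and -1.11, and *Rspo1* furthest to the right at 0.58.

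Among the markers of layer 6b and the subplate, *Ccn2* and *Nxph4* had their SP libraries below their vehicle libraries, while *Cplx3* did not separate the groups. *Ccn2* (ENSMUSG00000019997, chromosome 10 of GRCm38 from 24595442 to 24598683) encodes a secreted protein of the extracellular matrix. Its expression was 17.2, 12.9 and 15.8 CPM in vehicle 1, 2 and 3 and 8.82, 3.65 and 9.79 CPM in SP 1, 2 and 3. Every SP library lay below every vehicle library, and SP 2 was the lowest. The log2FC was -1.11 (SE 0.192, FDR 0.308 from edgeR), and the SP mean of 7.42 ± 3.30 CPM compared with 15.3 ± 2.17 CPM in vehicle (SD, n = 3 mice each). Without replicate 2 *Ccn2* passed the thresholds with a log2FC of -0.83 (FDR 0.0612). *Nxph4* (ENSMUSG00000040258, chromosome 10 from 127525473 to 127534559) encodes a neurexophilin, a secreted ligand of neurexins. It was measured at a low level, with 39, 35 and 33 counts in the vehicle libraries and 21, 13 and 22 in the SP libraries. These counts correspond to 1.68, 1.41 and 1.2 CPM against 0.895, 0.540 and 0.988 CPM, and the groups again did not overlap. Its log2FC of -0.83 had a SE of 0.293 and an FDR of 0.432. *Cplx3* (ENSMUSG00000039714, chromosome 9 from 57599992 to 57606281) encodes a complexin, which binds the SNARE complex of synaptic vesicle fusion. It had 7.0, 6.87 and 5.77 CPM in vehicle 1, 2 and 3 and 3.54, 9.34 and 4.0 CPM in SP 1, 2 and 3. SP 1 and SP 3 were the lowest of the 6 libraries and SP 2 the highest, so that *Cplx3* went the other way from *Ccn2* and *Nxph4* in SP 2. Its log2FC was -0.31 (SE 0.252, FDR 0.710), and it was -0.76 without replicate 2 and -0.004 without replicate 1.

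**Figure D2:**
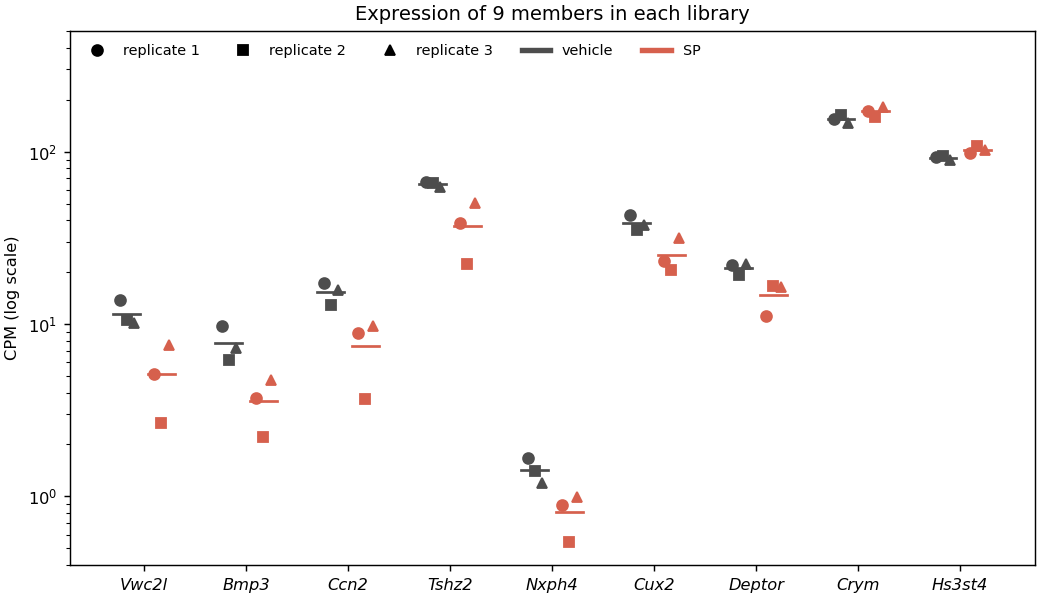
Expression in CPM (vertical axis, log scale) of 9 of the genes in each library, with vehicle in gray and SP in red, a symbol for each replicate number and a line at the mean of each group. SP 2 (red square) is the lowest library for *Vwc2l*, *Bmp3*, *Ccn2*, *Tshz2*, *Nxph4* and *Cux2*, SP 1 for *Deptor*, and the groups lie close together for *Crym* and *Hs3st4*.

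Of the 8 genes of layers 2 to 4, *Cux2*, *Rorb* and *Cux1* had SP libraries below all vehicle libraries, and *Rspo1* had the only log2FC above 0.2 in the set. *Cux2* (ENSMUSG00000042589, chromosome 5 from 121856366 to 122050102) and *Cux1* (ENSMUSG00000029705, chromosome 5 from 136248135 to 136567490) encode homeodomain transcription factors. *Cux2* had 43.1, 35.2 and 37.7 CPM in vehicle 1, 2 and 3 and 23.1, 20.6 and 31.7 CPM in SP 1, 2 and 3. SP 3 was nearest to the vehicle libraries, and the log2FC was -0.64 (SE 0.122, FDR 0.308). Without replicate 3 *Cux2* passed the thresholds at -0.84 (FDR 0.0352). *Cux1* had 43.3, 43.5 and 46.0 CPM in the vehicle libraries and 36.7, 37.4 and 41.5 CPM in the SP libraries, with a log2FC of -0.20 (SE 0.0592, FDR 0.394). *Rorb* (ENSMUSG00000036192, chromosome 19 from 18930605 to 19111196) encodes a nuclear receptor of layer 4 neurons. Its values of 19.4, 18.3 and 20.0 CPM in vehicle and 17.7, 16.0 and 15.1 CPM in SP did not overlap, and here SP 3 was the lowest library. The log2FC was -0.24 (SE 0.0855, FDR 0.430).

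The R-spondin gene *Rspo1* (ENSMUSG00000028871, chromosome 4 from 124986430 to 125009099), whose protein strengthens Wnt signaling, had only 19, 23 and 21 counts in the vehicle libraries and 28, 47 and 17 in the SP libraries. The 0.763 CPM of SP 3 lay within the 0.762 to 0.929 CPM of vehicle, and the log2FC of 0.58 (SE 0.295, FDR 0.552) was 0.29 without replicate 2. The most abundant genes of this group per kilobase of exon were *Lmo4* and *Rasgrf2*. *Lmo4* encodes a LIM-only cofactor of transcription and had 139.0, 150.4 and 150.5 CPM in vehicle and 167.4, 139.4 and 155.3 CPM in SP (log2FC 0.068, SE 0.0744). *Rasgrf2*, an exchange factor for Ras and Rac, had 94.7, 97.7 and 95.7 CPM in vehicle and 95.5, 105.3 and 84.5 CPM in SP (log2FC -0.019, SE 0.0665). In both genes the SP libraries spread around the vehicle values. *Scnn1a*, a subunit of the epithelial sodium channel used to label layer 4 neurons, had a log2FC of -0.023 (SE 0.129). *Otof*, which encodes the calcium sensor otoferlin, had 12.2 ± 1.38 CPM in vehicle and 9.77 ± 2.80 CPM in SP (SD, n = 3 each). The lowest library of *Otof* was SP 2 with 6.60 CPM, and its log2FC of -0.34 was -0.047 without replicate 2.

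Among the 9 transcription factors and cofactors of the deep layers, *Tshz2* stood at -0.87 and the other 8 between -0.25 and 0.10. *Tshz2* (ENSMUSG00000047907, chromosome 2 from 169633013 to 170071816) encodes a teashirt zinc finger protein and marks near-projecting neurons of layer 5. It had 66.3, 66.2 and 62.6 CPM in vehicle 1, 2 and 3 and 38.6, 22.3 and 50.5 CPM in SP 1, 2 and 3. The vehicle libraries were close together, with an SD of 2.07 CPM, whereas the SP libraries had an SD of 14.1 CPM and SP 2 was the lowest. The log2FC had a SE of 0.20 and an FDR of 0.335, and it was -0.54 without replicate 2. *Tbr1* (ENSMUSG00000035033, chromosome 2 from 61802930 to 61814114), which specifies layer 6 neurons, differed less but with little spread. Its 54.7, 51.7 and 51.7 CPM in vehicle and 44.2, 43.5 and 45.2 CPM in SP gave a log2FC of -0.25 (SE 0.0587, FDR 0.335), and it was between -0.28 and -0.22 whichever replicate or library was left out. *Tle4*, a Groucho-type corepressor of layer 6 neurons, had 49.7, 50.3 and 51.8 CPM in vehicle against 46.7, 49.0 and 49.7 CPM in SP. The groups of *Tle4* did not overlap before rounding, although SP 3 and vehicle 1 were equal at 3 digits, and its log2FC of -0.062 was near its SE of 0.0564.

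The most abundant factors per kilobase were *Lmo3* and *Bcl11b*. *Lmo3*, a LIM-only cofactor, had 139.0, 128.4 and 138.8 CPM in vehicle and 142.0, 143.9 and 136.9 CPM in SP. *Bcl11b*, a zinc finger factor of layer 5 and of hippocampal neurons, had 141.3, 127.6 and 146.5 CPM in vehicle and 152.0, 158.2 and 136.5 CPM in SP. Their log2FC values were 0.058 (SE 0.0559) and 0.10 (SE 0.0784), and in both genes the groups overlapped. *Etv1*, an ETS factor of layer 5, had a log2FC of -0.17 (SE 0.0741, FDR 0.505), with SP 2 at 98.5 CPM and the other 5 libraries between 128.4 and 140.3 CPM. *Fezf2*, which directs layer 5 neurons to project out of the forebrain, and the forkhead factor *Foxp1* had log2FC values of -0.013 and -0.031. The other forkhead factor, *Foxp2*, was the least abundant of the 33 genes per kilobase and had 2.25 ± 0.298 CPM in vehicle and 2.11 ± 0.617 CPM in SP (SD, n = 3 each).

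The other 13 genes mark deep layers, retrohippocampal cortex or subiculum and encode secreted proteins, enzymes and membrane proteins. *Vwc2l* (ENSMUSG00000045648, chromosome 1 from 70725715 to 70885397), whose secreted product has the von Willebrand C domain of bone morphogenetic protein (BMP) antagonists, had the most negative value of the 33. It had 13.8, 10.5 and 10.2 CPM in vehicle 1, 2 and 3 and 5.11, 2.66 and 7.54 CPM in SP 1, 2 and 3. The log2FC was -1.23 (SE 0.255, FDR 0.308), which left 42.6% of the vehicle level. Without replicate 3 *Vwc2l* passed the thresholds at -1.68 (FDR 0.0352), and without replicate 2 it had -0.92 (FDR 0.162). *Bmp3* (ENSMUSG00000029335, chromosome 5 from 98854415 to 98884396), a ligand that opposes other BMPs, had 9.80, 6.18 and 7.22 CPM in vehicle and 3.71, 2.20 and 4.76 CPM in SP. No SP library reached the vehicle libraries, and the log2FC was -1.14 (SE 0.192, FDR 0.308). *Bmp3* passed the thresholds without replicate 3, at -1.44 (FDR 0.0460). *Deptor* (ENSMUSG00000022419, chromosome 15 from 55112317 to 55259271) encodes an inhibitor of the kinase mTOR and had 22, 19.2 and 22.2 CPM in vehicle and 11.2, 16.6 and 16.5 CPM in SP. In *Deptor* the lowest library was SP 1, not SP 2, and the log2FC of -0.53 (SE 0.138, FDR 0.351) was -0.32 without replicate 1.

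*Lypd1* (ENSMUSG00000026344, chromosome 1 from 125867622 to 125913101), a membrane-anchored modulator of nicotinic receptors, was abundant, with 99.8, 98.4 and 94.0 CPM in vehicle and 93.4, 75.7 and 89.0 CPM in SP. Its groups did not overlap, although SP 1 was close to vehicle 3, and the log2FC was -0.18 (SE 0.0712, FDR 0.458). *Npr3*, the clearance receptor of natriuretic peptides, had 34.8 ± 4.08 CPM in vehicle and 27.6 ± 3.71 CPM in SP (SD, n = 3 each), a log2FC of -0.33 (SE 0.0890, FDR 0.359). In *Npr3* the 31.6 CPM of SP 3 exceeded the 30.2 CPM of vehicle 2, so that the groups overlapped, and SP was lower within each replicate number. *Rprm*, an inhibitor of the cell cycle used as a layer 6 marker, had 13.6 CPM in SP 2 and between 20.2 and 26.9 CPM in the other 5 libraries, with a log2FC of -0.11 (SE 0.193).

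At the other end, *Hs3st4* (ENSMUSG00000078591, chromosome 7 from 123982869 to 124398989), a sulfotransferase that modifies heparan sulfate, had 93.2, 93.9 and 90.1 CPM in vehicle and 98.3, 107.9 and 102.3 CPM in SP. All SP libraries lay above all vehicle libraries, with a log2FC of 0.15 (SE 0.0535, FDR 0.429). *Crym* (ENSMUSG00000030905, chromosome 7 from 120186380 to 120202111), which encodes a thyroid hormone binding protein, had the highest level per kilobase of the 33. It had 154.0, 163.3 and 145.9 CPM in vehicle and 173.3, 159.5 and 182.1 CPM in SP, a log2FC of 0.15 (SE 0.0717, FDR 0.527), and SP 2 lay among the vehicle libraries. *Sulf2*, an extracellular sulfatase of heparan sulfate, the synaptotagmin *Syt6*, *Stard8* and the membrane collagen *Col25a1* had log2FC values of 0.086, 0.10, 0.026 and -0.006, each within 2 SE of 0.

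Related genes of the set are set side by side. In the pair *Cux1* and *Cux2* the log2FC values were -0.20 and -0.64, and in the pair *Hs3st4* and *Hs3st2* they were 0.15 and -0.47. *Hs3st2* had 9.62 ± 1.48 CPM in vehicle and 7.06 ± 2.09 CPM in SP (SD, n = 3 each). Its SP 2 library was the lowest with 4.90 CPM, and the log2FC (SE 0.224, FDR 0.535) was -0.13 without replicate 2. *Lmo3* and *Lmo4* had 0.058 and 0.068, and *Foxp1* and *Foxp2* had -0.031 and -0.11 (SE 0.058 and 0.247). Whether the members of a pair differed from each other was not tested.

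Levels between genes were compared per kilobase of exon. The 16 more abundant genes, from *Crym* at 48.1 down to *Foxp1* at 4.84 CPM per kilobase, had a median log2FC of -0.016, and 14 of them lay within 0.2 of 0. *Tshz2* at 6.56 and *Tbr1* at 8.84 CPM per kilobase were the 2 that did not. The 17 less abundant genes, from *Ccn2* at 3.97 down to *Foxp2* at 0.133 CPM per kilobase, had a median of -0.33, and 14 of them were negative. Among all tested genes at the levels of these 17, the median was -0.040 and 58.0% were negative, and at the levels of the 16 the median was 0.019 and 41.6% were negative. Of the 7 genes below -0.5, 6 belonged to the less abundant part, where 6.81% of all genes had such a value, and *Tshz2* belonged to the more abundant part, where 0.677% did. *Vwc2l*, *Bmp3* and *Nxph4*, at 1.08, 0.763 and 0.668 CPM per kilobase, followed each other in level, with *Rspo1* next at 0.552 CPM per kilobase and a log2FC of the opposite sign.

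**Figure D3:**
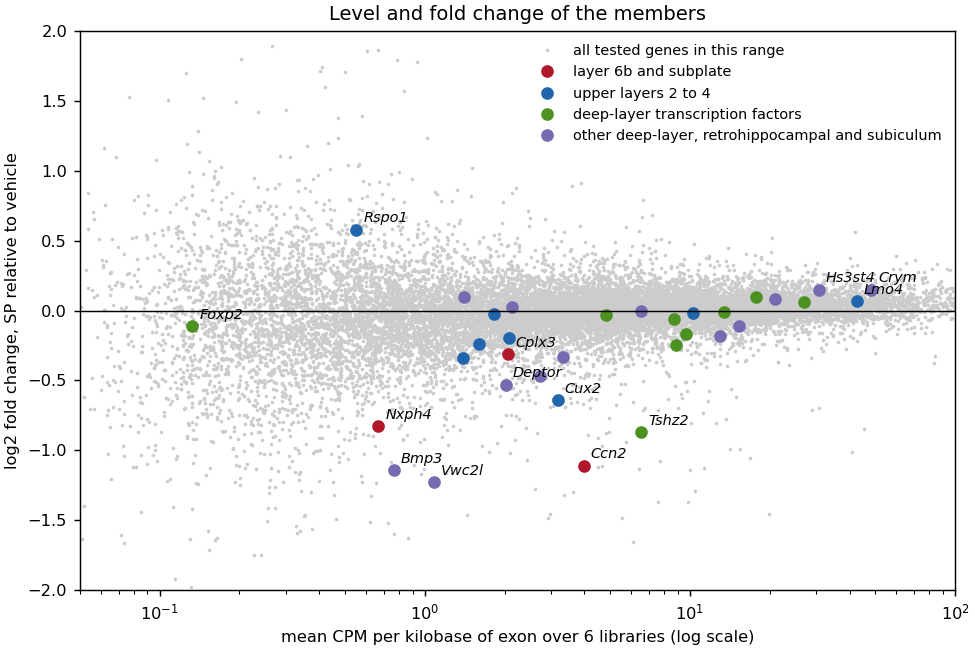
Log2 fold change in SP relative to vehicle (vertical axis) against the mean level over 6 libraries in CPM per kilobase of exon (horizontal axis, log scale) for the 33 genes, colored by group, over all tested genes in gray. The abundant genes at the right lie near 0, and the genes below -0.5 have levels between 0.668 CPM per kilobase (*Nxph4*) and 6.56 CPM per kilobase (*Tshz2*).

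Mice of the same replicate number deviated from their group means no more alike than mice of different numbers. Within each replicate number, which holds 1 SP and 1 vehicle mouse, 21, 25 and 20 of the 33 genes were lower in SP in replicates 1, 2 and 3. The median log2 ratio was -0.09, -0.22 and -0.08, where all tested genes had medians within 0.002 of 0. Lower in SP in every replicate number were 14 of the 33 genes (16.7% of all tested genes), and 2 were higher in every one (16.4%). For *Vwc2l* the ratios were -1.43, -1.98 and -0.44, for *Bmp3* -1.40, -1.49 and -0.60, and for *Ccn2* -0.96, -1.82 and -0.69. These 3 genes and *Tshz2* had their largest difference in replicate 2 and their smallest in replicate 3. SP 2 was the lowest library for 16 of the 33 genes and the highest for 8, compared with 21.7% and 24.4% of all tested genes. SP 2 was also the lowest library for the sum of the 33 genes, at 1594.1 CPM, where the other libraries had 1722.7 to 1768.1 CPM. The sum of the 3 layer 6b genes was 25.9, 21.2 and 22.8 CPM in vehicle and 13.3, 13.5 and 14.8 CPM in SP, so that the groups did not overlap. The sum hides opposite directions in SP 2, where *Cplx3* had its highest value at 9.34 CPM. *Ccn2* and *Nxph4* had their lowest values there, at 3.65 and 0.540 CPM.

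**Figure D4:**
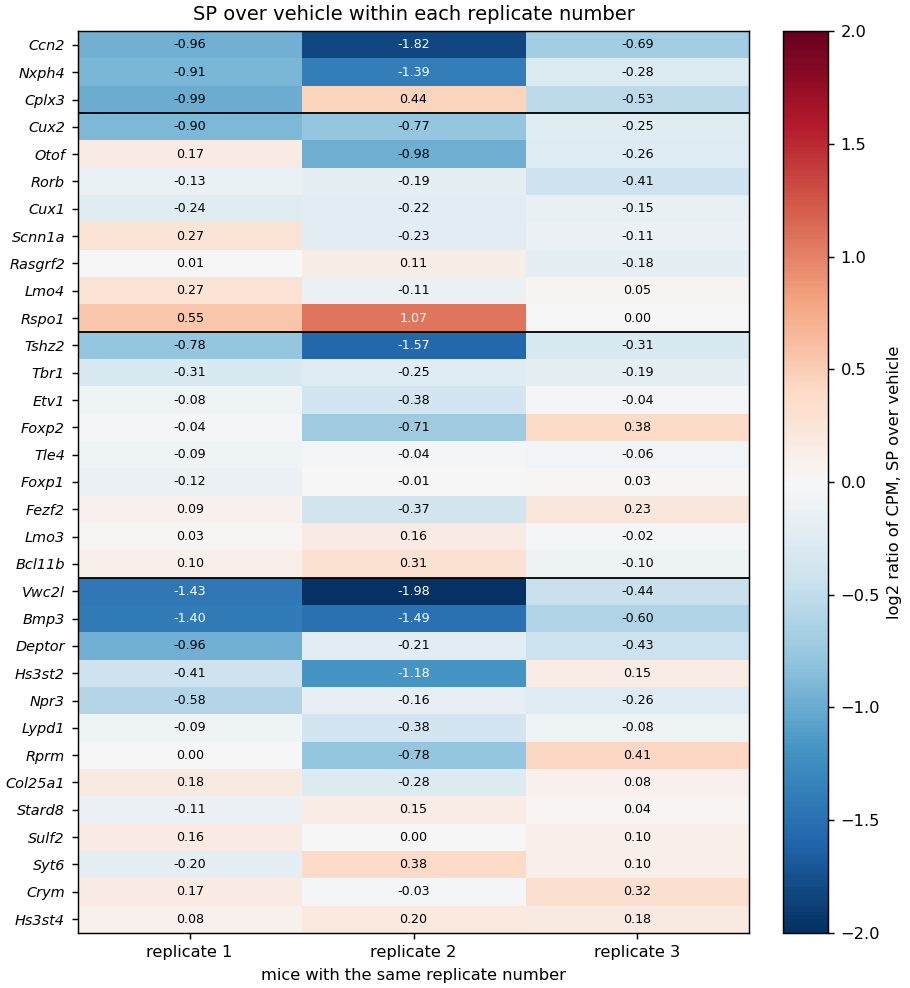
Log2 ratio of CPM, SP over vehicle, for each of the 33 genes (rows, with lines between the 4 groups of genes) in mice with the same replicate number (columns), printed in each cell and colored from blue for lower to red for higher in SP. *Vwc2l*, *Bmp3*, *Ccn2*, *Tshz2*, *Nxph4* and *Cux2* are blue in all columns, most weakly in replicate 3, whereas *Hs3st2*, *Rprm* and *Foxp2* are blue in replicate 2 and red in replicate 3.

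Another 13 genes of neocortex and subiculum outside the set gave 10 negative log2FC values (49.5% of all tested genes) and 3 positive ones. Their median was -0.27. In edgeR 0 of the 13 passed FDR < 0.1 and |log2FC| > 0.3 (0.0293% of all). The same test gave 5 of them an unadjusted p under 0.05, all lower (5.59% of all). *Nts*, the neurotensin gene expressed in subiculum, and *Tcerg1l* were at the low end with -0.63 (SE 0.334) and -0.50 (SE 0.223), and *Sema3e* and *Pcp4* at the high end with 0.12 (SE 0.0552) and 0.045 (SE 0.0773). The SP libraries of *Sema3e* were all above its vehicle libraries. SP 2 was the lowest library for 8 of the 13 (21.7% of all tested genes). These 13 genes, too, were listed with earlier results of these data known. They are no independent check of the set, and nothing is read from their counts.

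Markers of hippocampal subfields were measured, and no gene of these lists was at 0 in any library. The same held for the thalamic, striatal and choroid plexus genes below, so detection alone does not check the tissue label. Summed expression in vehicle and SP libraries ranged from 658.9 to 730.0 and from 661.0 to 735.1 CPM for 6 CA1 genes, from 421.7 to 458.4 and from 458.6 to 498.0 CPM for 7 CA3 and CA2 genes, and from 444.2 to 469.7 and from 424.9 to 594.8 CPM for 7 dentate granule cell genes. Their median log2FC values were 0.011, 0.20 and 0.25, with 3 of 6, 5 of 7 and 7 of 7 genes higher in SP. Within replicate 3, however, 6 of the 7 dentate genes were lower in SP. The lowest dentate sum, 424.9 CPM, was that of SP 3. The 5 genes of neurons of any kind summed to between 4680.7 and 4734.9 CPM in vehicle and between 4828.0 and 5034.1 CPM in SP. Genes of 4 other cell types or regions were measured beside the set. The 7 myelin genes summed to between 4166.7 and 4684.2 CPM in vehicle and between 4785.9 and 6861.8 CPM in SP (median log2FC 0.36, 7 of 7 higher as labelled), with the highest sum in SP 2. The 6 choroid plexus genes summed to between 3767.8 and 4695.5 CPM in vehicle, 172.6 CPM in SP 1 and 2777.1 and 3925.8 CPM in SP 2 and SP 3 (median log2FC -1.10, 6 of 6 lower). The 5 thalamic genes had 77.0 to 107.4 and 86.6 to 94.9 CPM, and the 6 striatal genes 46.6 to 55.5 and 38.9 to 50.1 CPM, in vehicle and SP. Their part in the values of the 33 genes was not tested.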

How the data were processed

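Hippocampal RNA from 3 mice given SP and 3 given vehicle was analysed, with 1 library per mouse, and the sample labels tied each column to a mouse. The deposited values are estimated counts per gene. The authors used TrimGalore for trimming, STAR for alignment to GRCm38 and Salmon for quantification in the Nextflow RNAseq pipeline, and deposited the counts unscaled. The annotation release is not given in the sources used here. Because 9.77% of the values were not whole (tolerance 1e-06), they were rounded. Reads shared with near-identical genes are divided by Salmon.

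The 33 genes, their 4 groups and the other lists were chosen with earlier results of these data known. The groups were compared by edgeR 4.0.16 (R 4.3.3) with filterByExpr (minimum count of 10, minimum total of 15), TMM normalization and the quasi-likelihood functions glmQLFit and glmQLFTest. The design held the replicate number as a block, because the study adjusts for replicates. The test itself reports no SE. The SE given here is the absolute log2FC divided by the square root of the F statistic of that test. P-values were adjusted over all 17069 tested genes by the Benjamini-Hochberg method, and the study's thresholds FDR < 0.1 and |log2FC| > 0.3 were used. Fold changes are SP relative to vehicle as labelled, and the labels could not be checked against a known target. The labels call the replicate number a batch. How far the SP mouse and the vehicle mouse of a number lay from their group means was compared across genes (Pearson's r 0.0118, -0.0798 and 0.0385 for numbers 1, 2 and 3). For an SP and a vehicle mouse of different numbers r ranged from -0.112 to 0.0991. The values for the same number lay within that range. Positions and exon lengths came from GENCODE M21 (GRCm38), and promoter windows from RefSeq (GRCm38.p6), cut to the 250 bases before the start site nearest to the gene's start. On simulated counts the edgeR fit recovered most of the changed genes, and it also made calls where no gene had been changed. The simulated counts were drawn independently for each gene, without shared differences of dissection between mice. They therefore do not show how the fit behaves where such differences exist. Named with values in every library are genes with |log2FC| > 0.5 or groups that do not overlap, and the 2 most abundant per kilobase in each group.

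Alternatives were no block, relative log expression normalization, no filter, at least 10 counts in every library, DESeq2 1.42.0 with and without the block, an FDR under 0.05, no minimum fold change, and leaving out each replicate number or, without the block, each library. Behavior and electrophysiology were not analysed here, and 1 gene outside the set is not reported here.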

Additional observations from a re-analysis of the deposited data

How the results depend on the processing

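The median log2 fold change of the 33 genes was negative under all 15 alternative fits. Leaving out a replicate number or a single library gave medians from -0.222 (without replicate 3) to -0.061 (without replicate 2). Of the 33 genes, 0 were called without the replicate block, with relative log expression normalization, with at least 10 counts in every library, at an FDR under 0.05 and with no minimum fold change. With no filter on low counts 7 were called, with DESeq2 3 with the block and 3 without it, and 0 to 6 when a replicate or library was left out (6 without SP replicate 3 and without the block). The cause was not tested. DESeq2 gave no FDR to some of the 33 genes, and these count as not called. Between 14 and 21 genes had groups that did not overlap when a replicate or library was left out, where smaller groups overlap less often. The share of all tested genes was not counted for these settings, so nothing is read from these counts.

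Over all tested genes 5 were called, against 2 without the block, 384 with no filter, 0 with at least 10 counts in every library, 36 and 133 with DESeq2 with and without the block, and 1 to 357 when a replicate or library was left out. The direction was the same in all alternatives for 22 of the 33 genes. Without the replicate block *Fezf2* had 0.007 in edgeR and 0.005 in DESeq2. When a replicate or library was left out, the log2 fold change ranged from -0.14 to 0.18 for *Fezf2*, -0.17 to 0.081 for *Scnn1a*, -0.093 to 0.059 for *Rasgrf2*, -0.032 to 0.16 for *Lmo4*, -0.081 to 0.014 for *Foxp1*, -0.38 to 0.18 for *Foxp2*, -0.10 to 0.13 for *Col25a1*, -0.38 to 0.20 for *Rprm*, -0.045 to 0.098 for *Stard8*, -0.044 to 0.24 for *Syt6* and -0.80 to 0.038 for *Cplx3*. *Nxph4*, *Rspo1* and *Foxp2*, with 13 to 64 counts per library, are limited by depth.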
